A study of Mus musculus with 4 samples.

Results

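Endothelial cells line the blood vessels, and 139 of the 23670 kept cells of the mouse testis libraries were selected as endothelial. Barcodes needed 500 or more detected genes and no more than 20% of their unique molecular identifiers (UMIs) from mitochondrial genes. A kept barcode was selected when Cdh5, Kdr, Cldn5, Emcn and Esam together had at least 4 UMIs and at least 0.05% of its UMIs, with at most 4 UMIs over the mural genes Rgs5, Notch3, Higd1b and Abcc9 and at most 2 over the germ cell genes Ddx4 and Dazl. The 5 selecting genes encode VE-cadherin, the main receptor for vascular endothelial growth factor (VEGF), claudin 5, endomucin and an endothelial adhesion molecule. Their levels are a description and carry no comparison.

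The study compared cultured testis with testis in vivo by droplet single-cell RNA sequencing, with 1 library for each of 4 groups. Per the labels, every animal was a C57BL/6 mouse carrying the Acr-Gfp transgene, in which the promoter of the germ cell gene Acr drives a green fluorescent protein. Testes removed at 7 days postpartum (dpp) were decapsulated, cut up and cultured for 2 or 7 days on agarose beneath a silicone (PDMS) ceiling, in α-MEM medium supplemented with AlbuMAX, and the other libraries came from testes at 9 dpp and 14 dpp. The number of animals per library is not given in the sources used here, and the library text of the labels speaks of female gonads. Age at removal plus culture time equals the in vivo age in each pair, so the 2-day culture was set against 9 dpp and the 7-day culture against 14 dpp.

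In the postnatal testis, blood capillaries run in the interstitium between the seminiferous tubules and do not enter them. VEGF acts through Kdr and Flt1, angiopoietins act through the receptor Tek, and Notch signalling through Dll4 separates sprouting tip cells from the stalk cells behind them. Flowing blood and circulating BMP ligands, read through the co-receptor endoglin, hold a vessel in its mature state.

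The deposited matrices held 7710, 5149, 5465 and 6527 barcodes. Here and throughout, 4 values in a row are for culture of 2 days, culture of 7 days, testis at 9 dpp and testis at 14 dpp, in that order. The selected cells held 619122, 725422, 302414 and 371246 UMIs, with medians per cell of 8156, 20293, 7782.5 and 8761. The deepest cell supplied 5.51%, 11.9%, 15.8% and 10.5% of these sums. No selected barcode occurred in more than 1 library, and Scrublet, a doublet caller, called none of the selected cells. Since each group is 1 library, nothing was tested between groups, and every interval covers counting error only. A group difference and a difference between 2 libraries cannot be told apart.

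At the limit of the rule, 15 cells had exactly 4 UMIs of the selecting genes, with a median of 7, 3, 2 and 3 identity genes, and 40 barcodes just outside had 3 UMIs, with medians of 2, 2, 2 and 4. The label was checked on genes that did not select the cells. Of the 139 cells, 126 had at least 3 of 26 endothelial identity genes and 104 had at least 10. Pecam1, the adhesion molecule CD31, had a UMI in 44 of 54, 20 of 28, 17 of 26 and 25 of 31 cells. In germ cells, which should lack it, the share with a Pecam1 UMI ran from 0.401% to 1.91% at median depths of 4479 to 11966.5 UMIs. Macrophage markers summed to 0, 5, 0 and 1 UMIs, and lymphocyte markers to 0 in each library. The 7 lymphatic genes summed to 24, 40, 14 and 7 UMIs, with 5, 4, 2 and 1 of them detected and 2, 5, 1 and 0 cells holding 3 or more of these UMIs. Flt4, which blood endothelium also expresses, had 16, 20, 5 and 7 UMIs, Pdpn 3, 10, 9 and 0, and Prox1, the lymphatic master regulator, 3, 8, 0 and 0. Lyve1 had 1, 2, 0 and 0 UMIs, Mmrn1 had 1 in the 2-day culture, and Reln and Ccl21a were at 0 in each library.

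A subset of the cells went against the label. In 26 of the 139 cells the stromal genes Pdgfra, Dcn, Lum, Col1a1, Col1a2 and Dpt together had 3 or more UMIs. There were 8, 8, 9 and 1 such cells. All 9 at 9 dpp and the 1 at 14 dpp lacked Pecam1 and carried a median of 4 selecting UMIs. In the 2-day culture 7 of the 8 had Pecam1, and the 8 carried a median of 50.5. In the 7-day culture 4 of the 8 lacked Pecam1, and the 8 carried a median of 30.5, against 111 in its other selected cells. The remaining 113 cells included 95 with Pecam1, among them all 17 remaining at 9 dpp. These 26 cells held 94.0%, 97.9%, 99.1% and 96.2% of the stromal UMIs, which summed to 488, 647, 1872 and 210 CPM (UMIs scaled to the usual common total of counts per library). Where a list median given for the culture pairs moved by 0.5 or more without these cells, both values are given. Mural markers summed to 315, 89.6, 43.0 and 16.2 CPM, myoid markers to 66.2, 19.3, 364 and 506, Sertoli markers to 158, 187, 215 and 420, and germ cell markers to 215, 105, 56.2 and 156. Mural markers had 3 or more UMIs in 16, 5, 2 and 1 cells, and myoid markers in 3, 3, 5 and 1. Germ cell markers had as many in 21, 11, 0 and 8 cells, and Sertoli markers in 16, 13, 10 and 22. Cells with markers of other types were thus not limited to the 26. The part of these markers in the results was not tested.

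**Figure D1:**
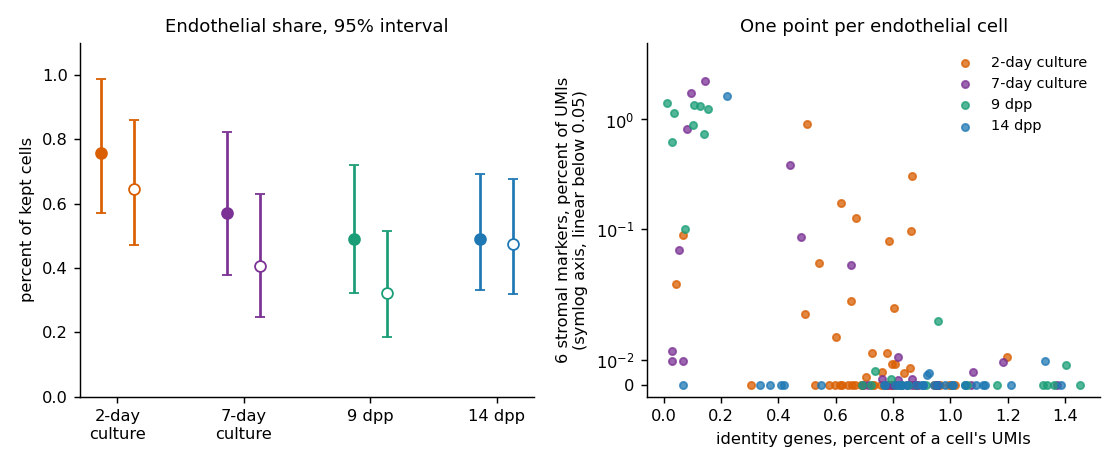
Left, endothelial share of kept cells in percent with its 95% exact interval, for all selected cells (filled) and without those with 3 or more stromal UMIs (open). Right, 1 point per endothelial cell, the percent of its UMIs from 26 identity genes (x axis) against the percent from 6 stromal genes (y axis, logarithmic above 0.05 and linear below). The 9 dpp cells with a stromal share near 1% sit at the low end of the identity axis, while most 2-day culture cells with stromal UMIs keep a high identity share.

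Endothelial cells made up 0.757% of kept cells in the 2-day culture (54 of 7130, 95% Clopper-Pearson interval 0.569% to 0.987%). The share was 0.570% in the 7-day culture (28 of 4909, 0.379% to 0.823%), 0.491% of 9 dpp (26 of 5293, 0.321% to 0.719%) and 0.489% of 14 dpp (31 of 6338, 0.333% to 0.694%). The share in the 2-day culture was 1.54 times that at 9 dpp, a log2 ratio of 0.62 (Katz interval −0.05 to 1.30). In the 7-day pair the log2 ratio was 0.22 (−0.51 to 0.96), so neither difference exceeded its counting error at this number of cells. Without the cells that carried stromal UMIs, the log2 ratio of the 2-day pair was 1.01 (0.21 to 1.81) and that of the 7-day pair was −0.22. Thinning to 2000 UMIs used only kept cells with at least that many, 5805 of 7130 in the 2-day culture and 5198 of 5293 at 9 dpp. The mural and germ cell limits were applied to the unthinned counts. Selection by a UMI in 2 or more of the 5 genes then gave 45 and 16 cells, a log2 ratio of 1.33 (0.51 to 2.15). Under stricter limits on mural and germ cell UMIs the log2 ratio of that pair was 0.67 (−0.08 to 1.42), and with 3 selecting UMIs it was 0.22 (−0.33 to 0.78). Whether its interval held 0 thus differed between the rules of selection.

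UMIs were summed over the endothelial cells of a library and scaled to CPM. A difference is the log2 ratio of CPM + 10, and a gene is called higher or lower from a log2 ratio of 1 or −1, which is a rule of size and not a test. The comparison covered 5163 genes, those whose UMIs summed to 50 or more across the 4 libraries. This minimum favours genes seen in the deeper culture libraries, and a gene that passed it only through the group where it is high had to differ. In the 2-day pair 430 genes (8.33%) were higher in culture and 445 (8.62%) lower, and in the 7-day pair 566 (11.0%) were higher and 386 (7.48%) lower. Over all genes the median ratio of the 2-day pair was 0.024. For the 7-day pair it was 0.12, and 0.023 with TMM scaling or 0.0015 with DESeq2 size factors. The split of called genes in the 7-day pair, 59.5% of them higher, was 486 higher and 448 lower with TMM (52.0% higher) and 467 and 459 with DESeq2 size factors (50.4%). In the 2-day pair the split followed the UMI minimum, with 558 higher and 865 lower at 20 UMIs and 168 and 108 at 200 UMIs. The 2 pairs share no library, but the UMI minimum was set over all 4 libraries together. Part of the overlap between the pairs was therefore fixed by it, and how large that part is was not tested. The genes higher in both pairs numbered 219, which is 50.9% of the first list and 38.7% of the second, and those lower in both numbered 211 (47.4% and 54.7%). Only 7 genes were higher in the 2-day pair and lower in the 7-day pair, and 15 went the other way.

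**Figure D2:**
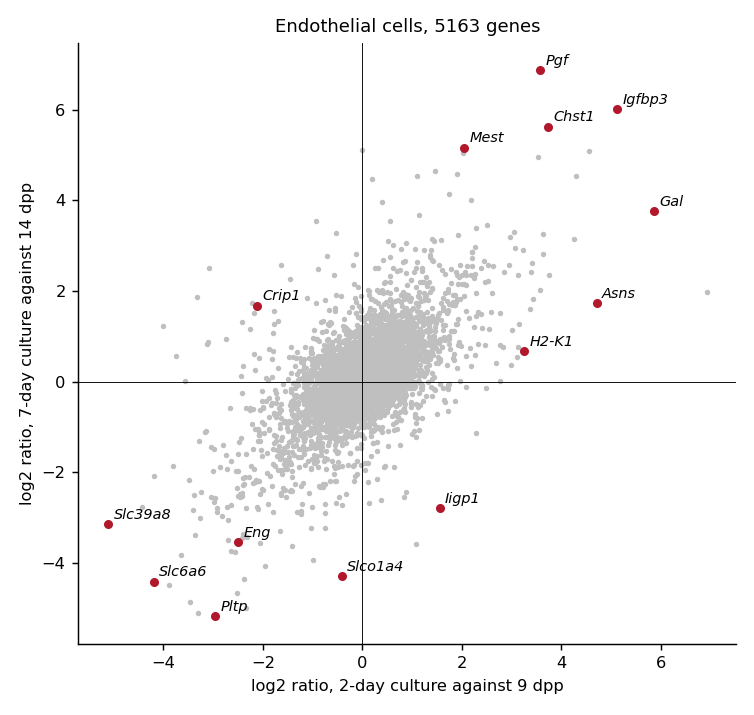
Each grey point is 1 of 5163 genes in endothelial cells, with its log2 ratio of CPM + 10 in the 2-day pair (x axis) and the 7-day pair (y axis). Red points are named genes. Most points lie along the rising diagonal, with Igfbp3, Pgf and Chst1 at the upper right and Slc39a8, Slc6a6, Eng and Pltp at the lower left, while Iigp1 and Crip1 differ in sign.

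The endothelial programme as a whole was present in each library. The 26 identity genes summed to 7616, 7277, 7437 and 9255 CPM, against at most 118 CPM in germ cells, 583 to 682 CPM in stromal cells and 245 to 455 CPM in mural cells. Of 25 identity genes compared, 3 were higher and 6 lower in the 2-day pair (median 0.069, and −0.25 without the cells with stromal UMIs), and 4 were higher and 7 lower in the 7-day pair (median −0.41). Of all genes, 8.33% were higher and 8.62% lower in the first pair, and 11.0% and 7.48% in the second, so the number of higher members in the 2-day pair lay near the share of all genes. Pecam1 stood at 368, 506, 351 and 374 CPM, a similar level in the 4 libraries.

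The receptors and ligands of VEGF and angiopoietin had no common direction. Of 8 compared, 2 were higher and 2 lower in the 2-day pair (median −0.37), and 2 were higher and 3 lower in the 7-day pair (median −0.37, and 0.35 without the cells with stromal UMIs). The shares of all genes were 8.33% higher and 8.62% lower, then 11.0% and 7.48%. The ligands Pgf and Angpt2 were the higher members, and Tek and Ptprb were low in both pairs, as was Eng, an identity gene outside that list. Eng, the endoglin co-receptor for BMP9 and BMP10, stood at 150 and 113 CPM in the 2-day and 7-day cultures against 890 and 1417 CPM at 9 dpp and 14 dpp. Both cultures lay under both in vivo libraries, by 5.92-fold in the 2-day pair (log2 ratio of CPM −2.57, counting interval −2.92 to −2.22) and by 12.5-fold in the 7-day pair (−3.65, −4.00 to −3.31). After thinning to 2000 UMIs, which leaves out 9, 1, 1 and 7 shallower endothelial cells, an Eng UMI was found in 7 of 45, 5 of 27, 17 of 25 and 21 of 24 cells (unthinned 40 of 54, 22 of 28, 21 of 26 and 26 of 31), and in at most 0.400% of thinned germ cells. Ptprb, the phosphatase that holds Tek in check, stood at 30.7, 27.6, 231 and 501 CPM. Tek itself stood at 14.5, 16.5, 76.1 and 121 CPM. Ptprb and Tek were again low in both cultures, with log2 ratios of CPM + 10 of −2.57 and −1.81 in the 2-day pair and −3.77 and −2.31 in the 7-day pair. Flt1, the VEGF decoy receptor, stood at 129, 41.4, 192 and 318 CPM and passed the size rule in the 7-day pair alone, and Calcrl, the receptor for adrenomedullin, stood at 22.6, 17.9, 112 and 102 CPM.

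Sox7 and Icam2 went the other way. Sox7, a SoxF transcription factor, stood at 275, 211, 39.7 and 26.9 CPM, while its relative Sox17 stood at 294, 372, 278 and 393 CPM. Sox7 was thus high in both cultures (log2 ratios 2.52 and 2.58), and Sox17 was within the size rule in both pairs. Icam2, a leukocyte adhesion molecule, stood at 704, 805, 271 and 318 CPM.

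Most genes of the tip cell and sprouting list were higher in culture. Of 14 genes, all compared, 10 were higher and 1 lower in the 2-day pair (median 1.62), and 12 were higher and 1 lower in the 7-day pair (median 2.36). Pgf and Plaur reached the 50-UMI minimum through the cultures alone and Kcne3 through the 2-day culture, so their calls were fixed by it, and Esm1, Cxcr4, Angpt2, Unc5b, Adm and Nid2 would not have reached it on their in vivo UMIs. The counts of the list are therefore a description, and the shares of all genes called higher, 8.33% and 11.0%, stand beside them as background only. Without the cells with stromal UMIs the counts were 9 higher and 2 lower, and 12 higher and 1 lower. With every cell weighted equally they were 7 higher and 1 lower (median 1.01), and 11 higher and 1 lower (median 2.53). Igfbp3, a secreted binder of insulin-like growth factors (chr11:7206086-7213923, GRCm38, the mm10 build), stood at 6793, 8817, 185 and 127 CPM. It was 36.7-fold higher in the 2-day pair (log2 5.20, interval 4.82 to 5.60) and 69.6-fold higher in the 7-day pair (6.12, 5.71 to 6.57). After thinning it was found in 43 of 45, 20 of 27, 7 of 25 and 6 of 24 cells (unthinned 52 of 54, 22 of 28, 16 of 26 and 13 of 31). The median cell gave Igfbp3 0.629% and 0.740% of its UMIs in the cultures, 0.00812% at 9 dpp and 0 at 14 dpp.

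Other ligands and receptors of sprouting followed. Pgf, placental growth factor, which binds Flt1, stood at 149, 1163 and 3.31 CPM and had no UMI at 14 dpp. The 7-day culture was at least 144-fold above 14 dpp, computed against 3 counts in the 14 dpp library. Plaur, the urokinase receptor, stood at 115 and 60.7 CPM in culture and had no UMI in either in vivo library, a difference of at least 11.6-fold and 7.51-fold. Angpt2, the destabilising angiopoietin, stood at 100, 143, 19.8 and 18.9 CPM. Mcam (CD146) stood at 376, 456, 119 and 43.1 CPM, and the chemokine receptor Cxcr4 at 96.9, 175, 36.4 and 24.2 CPM. In each of these genes both cultures lay above both in vivo libraries. Kcne3, a potassium channel subunit named as a tip cell gene, was high in the 2-day culture alone, at 132, 6.89 and 9.92 CPM with no UMI at 14 dpp. Aplnr, the apelin receptor, was the member that went the other way, at 30.7, 2.76, 159 and 140 CPM.

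The Notch and arterial list had 3 higher and 1 lower of 10 compared in the 2-day pair (median 0.57) and 6 higher and 2 lower in the 7-day pair (median 1.59). The latter median was −0.043 when genes from 20 UMIs were compared and −0.038 from 1 UMI, and Hey1, Notch4 and Efnb2 reached 50 UMIs through the cultures. Beside these counts, 8.33% of all genes were higher and 8.62% lower for the 2-day pair, and 11.0% and 7.48% for the other pair. Dll4, the Notch ligand of tip and arterial cells, stood at 362, 298, 95.9 and 83.5 CPM. Its target Hey1 stood at 59.8, 199, 16.5 and 13.5 CPM. The gap junction gene Gja4 (connexin 37) stood at 956, 1439, 188 and 129 CPM, 5.07-fold higher in the 2-day pair (log2 2.34, 1.95 to 2.76) and 11.1-fold higher in the 7-day pair (3.48, 3.06 to 3.93). Those 3 genes were above both in vivo libraries in both cultures. Gja5, the connexin of larger arteries, had 1 UMI in each culture and none in vivo. Hes1 and Notch1 stood within the size rule in the 2-day pair, at log2 ratios of −0.09 and −0.27. The 6 venous genes compared gave a median of −0.63 and −0.066.

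**Figure D3:**
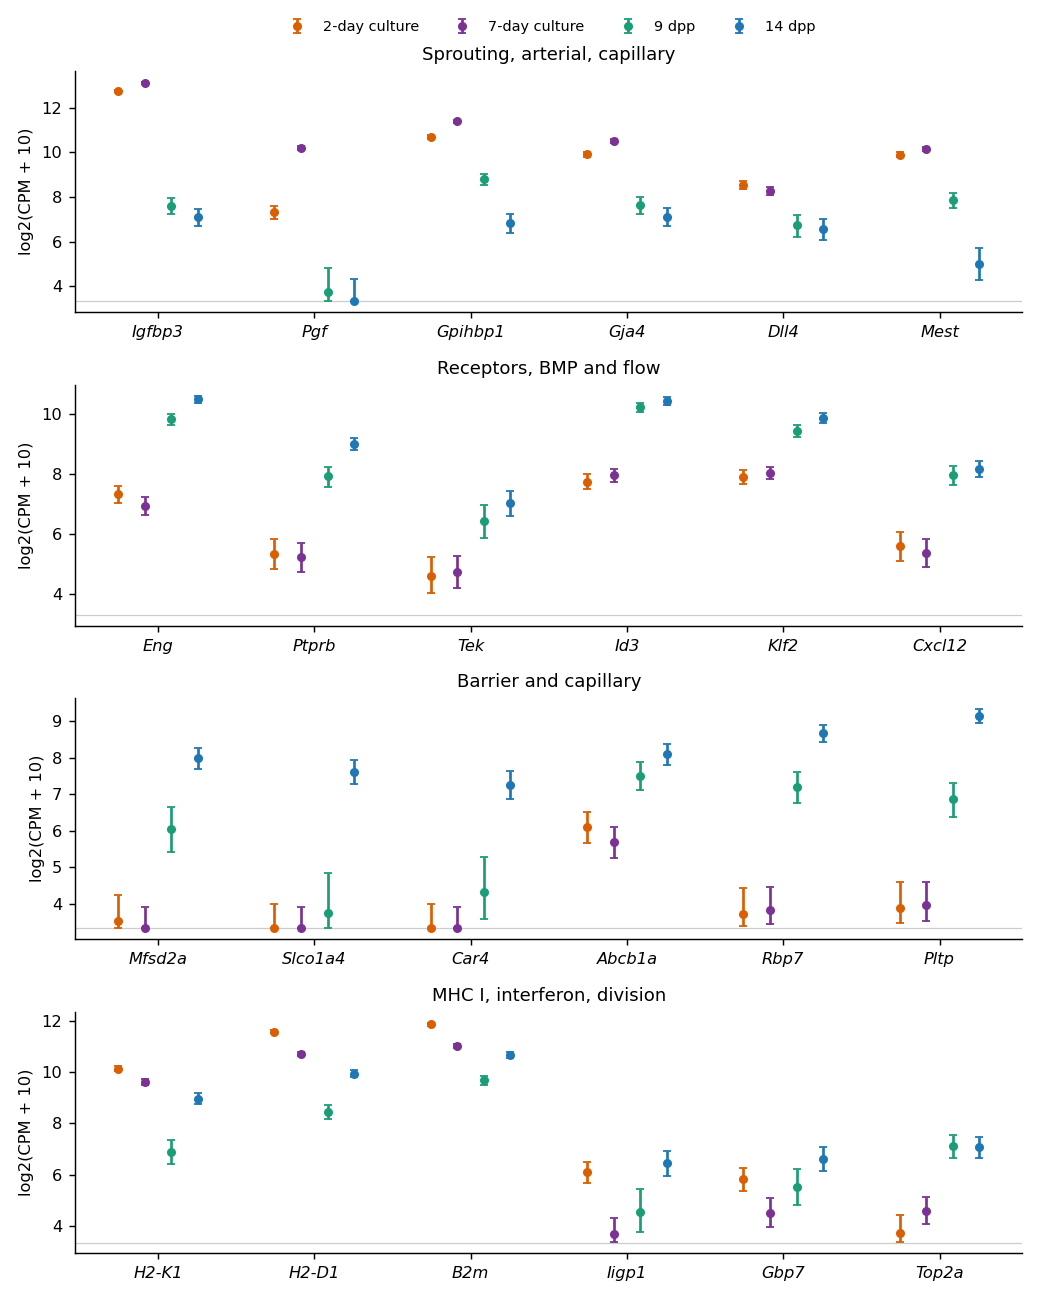
Level of 24 genes in endothelial cells of each library as log2(CPM + 10) with the 95% Poisson interval of the count. The grey line marks 0 UMIs. Igfbp3, Pgf, Gpihbp1, Gja4 and Dll4 are high in both cultures, Eng, Ptprb, Tek, Id3, Klf2 and Cxcl12 are low in both, and Mfsd2a, Slco1a4, Car4 and Pltp are highest at 14 dpp.

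Named targets of BMP signalling, Id1, Id3 and Smad7, were low in culture. The 12 genes of BMP and TGF-beta signalling compared had 3 higher and 7 lower in the 2-day pair (median −1.11) and 1 higher and 6 lower in the 7-day pair (median −0.60), where 8.62% and 7.48% of all genes were lower. Of all genes 8.33% and 11.0% were higher, and the 1 higher member of the 7-day pair lay near that share. The 7-day median was 0.17 under stricter mural and germ limits and 0.039 at a minimum of 200 UMIs. Id3, an inhibitor of differentiation that BMP receptors induce, stood at 205, 237, 1171 and 1368 CPM. Id1 stood at 107, 145, 258 and 401 CPM. The inhibitory Smad gene Smad7, a feedback target of the pathway, stood at 4.85, 6.89, 36.4 and 86.2 CPM and reached the minimum mainly through its in vivo UMIs. The 3 genes were ordered alike, with both cultures under both in vivo libraries. Id3 was 5.71-fold lower in the 2-day pair (log2 −2.51, −2.82 to −2.22) and 5.77-fold lower in the 7-day pair (−2.53, −2.79 to −2.28). The receptor Acvrl1 (ALK1) and the ligand Tgfb1 were among the higher members of the 2-day pair, Tgfb1 at 236, 283, 92.6 and 70.0 CPM.

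The flow response list had 1 higher and 4 lower of 9 compared in the 2-day pair (median −0.79) and 1 higher and 3 lower in the 7-day pair (median −0.10). The sign of the first median was not stable, at 0.79 with a minimum of 200 UMIs, 0.22 with 1 UMI and 0.024 with 8 selecting UMIs. Among all genes 8.33% and 11.0% were higher, which the single higher member of each pair lay near, and 8.62% and 7.48% were lower. Klf2, the transcription factor best known for its induction by laminar flow, stood at 229, 251, 681 and 916 CPM. It was 2.97-fold lower in the 2-day pair (log2 −1.57, −1.89 to −1.26) and 3.65-fold lower in the 7-day pair (−1.87, −2.14 to −1.60). Klf4 stood at 22.6, 40.0, 149 and 205 CPM. Nos3, the endothelial nitric oxide synthase and a Klf2 target elsewhere, was not low, at 166, 142, 59.5 and 91.6 CPM, and Klf6 was high in the 7-day culture at 270, 419, 165 and 94.3 CPM. The list therefore did not move as a block.

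Basement membrane genes were lower in the 2-day culture in 9 of 14 compared and higher in none (median −1.08), against 8.62% of all genes lower. In the 7-day pair 3 were higher and 3 lower (median −0.44), beside 11.0% and 7.48% of all genes. Hspg2, the heparan sulfate proteoglycan perlecan, stood at 90.5, 152, 413 and 337 CPM, and Sparcl1, a matricellular protein, at 262, 438, 1104 and 1258 CPM. Both were low in both cultures. Col4a1 stood at 552, 554, 1118 and 778 CPM, while Col18a1, whose fragment is endostatin, stood at 360, 550, 274 and 218 CPM.

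Barrier and many capillary genes were low in the 7-day culture beside 14 dpp. All 8 barrier transporter genes compared were lower in that pair (median −2.56), and 3 were lower and none higher in the 2-day pair (median −0.80). Without the cells with stromal UMIs, 8 and 4 were lower. Slco1a4 reached the 50-UMI minimum through 14 dpp alone and Mfsd2a through the in vivo libraries, so they had to be called lower. The background shares of lower genes were 7.48% for the 7-day pair and 8.62% for the 2-day pair. Slco2a1 had 15, 0, 18 and 31 UMIs. Mfsd2a, the transporter that carries lysophosphatidylcholine and marks barrier endothelium, stood at 1.62, 0, 56.2 and 242 CPM. The 7-day culture was at least 58.6-fold below 14 dpp, computed against 3 counts in the culture. Germ cells gave 5.07, 2.93, 6.56 and 8.98 CPM. Abcb1a, which encodes the drug efflux pump P-glycoprotein, stood at 58.1, 41.4, 172 and 264 CPM. Slc7a5, the large amino acid transporter, stood at 174, 78.6, 301 and 568 CPM, and its partner Slc3a2 at 560, 363, 840 and 1522 CPM. In each of them the 7-day culture was lowest and 14 dpp highest. Slco1a4, an organic anion transporter of barrier capillaries, had no UMI in either culture, 1 UMI at 9 dpp and 186 CPM at 14 dpp, where it was found in 11 of 24 thinned cells (unthinned 19 of 31). Its level in the 7-day culture was at least 44.9-fold lower.

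The capillary and lipid uptake list had 1 higher and 4 lower of 7 compared in the 2-day pair (median −1.73) and 2 higher and 4 lower in the 7-day pair (median −1.05). The first median was 0.36 at a minimum of 200 UMIs, and Car4 and Mfsd2a passed the 50-UMI minimum through the in vivo libraries. As background, 8.33% and 11.0% of all genes were higher and 8.62% and 7.48% lower. Car4, a carbonic anhydrase on capillary surfaces, had no UMI in either culture and stood at 9.92 CPM at 9 dpp and 143 CPM at 14 dpp. Rgcc stood at 207, 74.4, 1640 and 611 CPM. These are members that were low in culture. Gpihbp1, which anchors lipoprotein lipase in capillaries, was higher in both pairs, at 1644, 2680, 430 and 102 CPM, 3.82-fold higher in the 2-day pair (log2 1.94, 1.67 to 2.21) and 26.2-fold higher in the 7-day pair (4.71, 4.25 to 5.21). Fabp5, a fatty acid binding protein, was the other higher member of the 7-day pair and was lower in the 2-day pair, at 16.2, 138, 79.4 and 40.4 CPM. Fenestral Plvap was sparse, at 12.9, 35.8, 66.1 and 53.9 CPM with 75% of the 9 dpp UMIs in 1 cell.

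**Figure D4:**
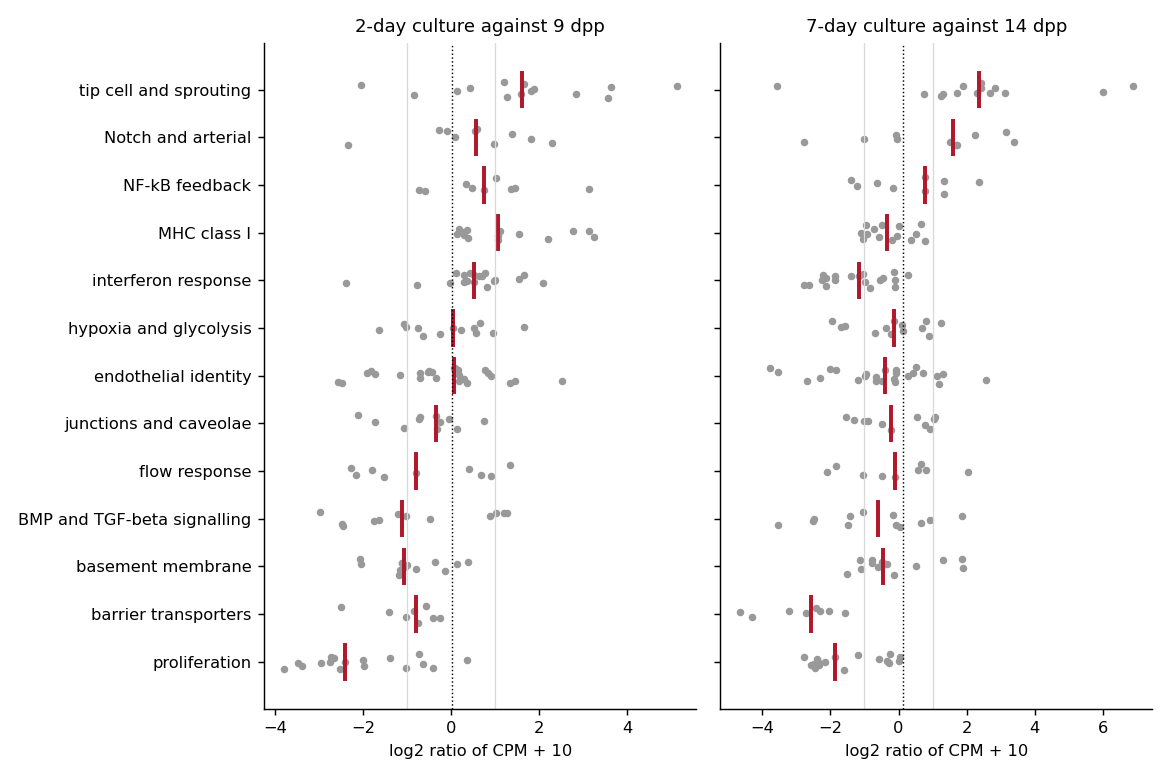
Each grey point is a gene of the list named on the y axis, placed by its log2 ratio of CPM + 10 in the 2-day pair (left) or the 7-day pair (right). Red bars are list medians, the dotted line is the median of all 5163 genes and the pale lines mark −1 and 1. The sprouting list has medians of 1.62 and 2.36, the barrier list −0.80 and −2.56, and the proliferation list −2.42 and −1.86.

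MHC class I genes were low at 9 dpp, the youngest in vivo library, and high in the 2-day culture. MHC class I presents peptides from inside the cell to cytotoxic T cells, with B2m as the invariant light chain. Of 14 genes compared, 8 were higher and none lower in the 2-day pair (median 1.07), against 8.33% of all genes higher. H2-Q7 reached the minimum through the cultures. None was higher and 2 were lower in the 7-day pair (median −0.33), a number near the 7.48% of all genes that were lower. H2-K1, a heavy chain, stood at 1121, 786, 109 and 490 CPM. H2-D1, the other classical heavy chain of this strain, stood at 3077, 1678, 341 and 980 CPM. B2m stood at 3771, 2068, 817 and 1613 CPM. In all 3 genes the order of libraries was the same, with the 2-day culture highest and 9 dpp lowest. The 2-day ratio was 10.3-fold for H2-K1 (log2 3.36, 2.86 to 3.91), 9.03-fold for H2-D1 (3.18, 2.89 to 3.48) and 4.62-fold for B2m (2.21, 2.02 to 2.40), and the 7-day ratios were 1.60-fold, 1.71-fold and 1.28-fold.

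Germ cells of the same libraries showed H2-K1 at 242, 261, 88.0 and 230 CPM, also lowest at 9 dpp. The part of free RNA in the endothelial values was not tested. H2-K1 was found in 82.2%, 81.5%, 12.0% and 66.7% of thinned endothelial cells (unthinned 81.5%, 100%, 61.5% and 87.1%). It was found in 30.2%, 40.0%, 16.6% and 36.0% of thinned germ cells, so the endothelial share at 9 dpp did not exceed that of germ cells. Classical MHC class I genes are close copies of each other, and the division of reads among H2-K1, H2-D1 and the H2-Q genes is uncertain. Without the cells with stromal UMIs, 12 genes were compared and 5 were higher in the 2-day pair (median 0.63).

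Promoters of 3 MHC class I genes named above are shown, chosen because each holds a motif of a kind that inflammatory transcription factors are known to bind. Windows of 250 bases before the transcription start came from RefSeq on GRCm38.p6 and are printed 5′ to 3′ on the gene's strand, with matches in capitals. The motif GGGGATTCCC, an NF-kB type site whose spelling was taken from the H2-K1 window after that window was read, was searched on both strands and occurs in 28 of all 32851 windows (0.0852%). Among 13 of the 14 compared genes with a window it was in those of H2-K1, H2-D1 and H2-Q7, and in none of the other 10. The H2-K1 match was fixed by the choice of spelling, and the 3 genes are close copies. Their count is therefore no measure against the share of all windows. H2-K1 is listed with 2 starts, and the window shown is chr17:34000348-34000597 (minus strand), with the motif 111 to 102 bases before the start. H2-D1 is chr17:35262844-35263093 (plus strand), with the motif 171 to 162 bases before the start. The B2m window, chr2:122147437-122147686 (plus strand), holds GAAA, any 2 bases and GAAA again, an interferon response type motif found in 2.98% of windows, 139 to 130 bases before the start, and among the 13 windows it was in those of H2-T22 and B2m. Most of the 13 windows thus held neither motif. A match is a description of the letters and no evidence of binding.
H2-K1: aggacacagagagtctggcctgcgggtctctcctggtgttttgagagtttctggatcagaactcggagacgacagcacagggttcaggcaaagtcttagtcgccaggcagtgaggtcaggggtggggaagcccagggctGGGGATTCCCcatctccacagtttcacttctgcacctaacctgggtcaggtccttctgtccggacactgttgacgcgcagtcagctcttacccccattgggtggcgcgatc
H2-D1: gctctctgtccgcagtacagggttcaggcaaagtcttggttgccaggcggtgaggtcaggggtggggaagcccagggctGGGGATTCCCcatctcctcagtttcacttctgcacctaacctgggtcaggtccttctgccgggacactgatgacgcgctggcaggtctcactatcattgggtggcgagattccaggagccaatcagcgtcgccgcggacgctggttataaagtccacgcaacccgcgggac
B2m: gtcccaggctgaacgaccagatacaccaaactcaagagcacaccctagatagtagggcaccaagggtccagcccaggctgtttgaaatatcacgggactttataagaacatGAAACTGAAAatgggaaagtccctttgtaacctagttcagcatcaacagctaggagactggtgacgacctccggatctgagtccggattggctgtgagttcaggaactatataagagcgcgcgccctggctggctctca

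Genes that interferons induce were highest at 14 dpp and lowest in the 7-day culture, summing to 2163, 1380, 2497 and 4644 CPM. Of 19 compared, 4 were higher and 1 lower in the 2-day pair (median 0.51), and none was higher and 11 were lower in the 7-day pair (median −1.15). The shares of all genes were 8.33% higher and 8.62% lower in the 2-day pair, and 11.0% and 7.48% in the 7-day pair. The 1 lower member of the 2-day pair lay near that share. The median without the cells that carried stromal UMIs was 0.67 and −1.20, and the 2-day median was −0.21 at a minimum of 200 UMIs. Iigp1, an interferon-induced GTPase, stood at 58.1, 2.76, 13.2 and 78.1 CPM. Gbp7, a guanylate-binding protein, stood at 46.8, 12.4, 36.4 and 88.9 CPM. Ly6e stood at 481, 302, 837 and 1476 CPM and Ly6a, which encodes Sca-1, at 144, 38.6, 109 and 288 CPM. For all 4 genes the 7-day culture was lowest and 14 dpp highest. Ly6c1, a surface marker of capillary and arterial endothelium, was low in both cultures at 142, 349, 787 and 1565 CPM. Of the 19 genes, 14 had a promoter window and 7 of these held the spaced GAAA repeat (Ifit3, Isg15, Bst2, Igtp, Gbp2, Gbp3 and Gbp7). In the median cell, interferon response genes made up 0.142%, 0.121%, 0.207% and 0.457% of UMIs and MHC class I genes 0.786%, 0.479%, 0.225% and 0.440%.

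**Figure D5:**
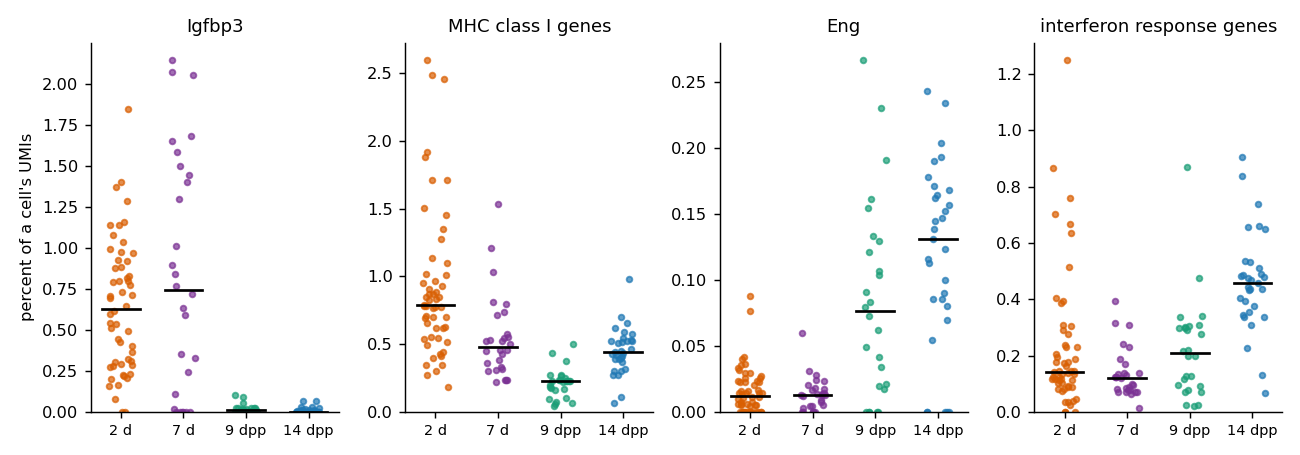
Percent of a cell's UMIs (y axis) from Igfbp3, the MHC class I list, Eng and the interferon response list, 1 point per endothelial cell, with the library median as a black bar. Igfbp3 is spread over most cultured cells, the MHC class I medians run from 0.225% at 9 dpp to 0.786% in the 2-day culture, and the interferon median is highest at 14 dpp (0.457%).

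The leukocyte adhesion list had 1 higher and 2 lower of 6 compared in each pair (medians −0.72 and −0.26), where 8.33% and 11.0% of all genes were higher and 8.62% and 7.48% lower. Its selectins were nearly absent. Sele (E-selectin) had 1 UMI in the 7-day culture and none elsewhere, Selp (P-selectin) had 2 UMIs at 14 dpp and none elsewhere, and Ackr1, a chemokine carrier of venules, was at 0 in all 4 libraries. Icam1 fell short of the 50-UMI minimum, at 8.08, 1.38, 33.1 and 75.4 CPM. Vcam1 stood at 25.8, 46.9, 142 and 29.6 CPM. Its 2-day log2 ratio was −2.09, and −0.90 without the cells with stromal UMIs.

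Of the 16 chemokine and cytokine genes only 5 passed the minimum. Among them 3 were higher and 1 lower in the 2-day pair, and 4 were higher and 1 lower in the 7-day pair (median 2.01), beside 8.33% and 11.0% of all genes higher. Ccl2 and Cxcl10 passed through the cultures alone and so had to be called higher. Without the cells with stromal UMIs, 4 genes were compared and 2 were higher in the 7-day pair (median 1.15). Ccl2, which attracts monocytes, stood at 225 and 331 CPM in culture with no UMI in vivo, but 1 cell held 54% and 76% of those UMIs, and germ cells of the 2-day culture gave 93.4 CPM. Cxcl10 stood at 108 and 30.3 CPM in culture with no UMI in vivo, with 21% of the 2-day and 86% of the 7-day UMIs in 1 cell. Cxcl1 and Cxcl16, the other higher members of the 7-day pair, had at most 16% and 20% of their culture UMIs in 1 cell. The share held by the top cell thus differed between these genes. Cxcl12, the constitutive ligand of Cxcr4, went the other way at 38.8, 31.7, 238 and 277 CPM.

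Feedback genes of NF-kB had 4 higher and none lower of 9 compared in the 2-day pair (median 0.75) and 3 higher and 2 lower in the 7-day pair (median 0.77). Tnip1, Relb and Nfkb2 reached the minimum through the cultures, so these counts are a description beside the 8.33% and 11.0% of all genes that were higher. Tnip1, a partner of the inhibitor A20, stood at 194, 138, 13.2 and 18.9 CPM, 14.7-fold higher in the 2-day pair (log2 3.87, 2.48 to 5.77). Nfkbia, which encodes the inhibitor IkB-alpha, stood at 685, 571, 245 and 331 CPM. Relb stood at 50.1, 62.0, 13.2 and 18.9 CPM. The cultures were above both in vivo libraries for these 3 genes, while Nfkb1 stood within the size rule in both pairs (−0.73 and −0.16).

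Most genes of the cell division list were low in the summed counts of cultured endothelial cells. Of 17 compared, 13 were lower and none higher in the 2-day pair (median −2.42), and 11 were lower and none higher in the 7-day pair (median −1.86). Mki67, Ccnb1 and Rrm2 had fewer than 10 UMIs in the cultures together, and they, Top2a, Cdk1, Ccnb2, Birc5, Cenpf and Ube2c reached the minimum mainly through the in vivo libraries, so the counts are a description. The background was 8.62% and 7.48% of all genes lower. With the germ cell level of each library subtracted, the median was 0.0 in both pairs. Germ cells carry these RNAs themselves, with Top2a above the endothelial level in each library. The subtraction therefore cannot show whether endothelial cells differed. At a minimum of 200 UMIs the median was −1.36 and −0.45. Without the cells with stromal UMIs, 10 of 14 were lower in the 2-day pair (median −2.62) and 8 of 14 in the 7-day pair (median −2.54). With every cell weighted equally, 10 of 17 were lower in the 2-day pair (median −1.08) and 11 in the 7-day pair (median −1.84). Top2a, a topoisomerase of dividing cells, stood at 3.23, 13.8, 129 and 124 CPM, with 2, 10, 39 and 46 UMIs. Cdk1 stood at 22.6, 22.1, 205 and 207 CPM, and Birc5 at 8.08, 27.6, 192 and 159 CPM. Both cultures were under both in vivo libraries in these genes, and 1 cell held 90% of the Top2a and 80% of the Birc5 UMIs of the 7-day culture. After thinning, 2 of 45, 1 of 27, 5 of 25 and 9 of 24 cells had at least 3 UMIs over 14 division genes (unthinned 15 of 54, 10 of 28, 11 of 26 and 15 of 31). The summed list did not share this order, since it took 0.399%, 0.241%, 0.238% and 0.492% of UMIs in the median cell. Its most abundant gene in each culture and at 9 dpp and 14 dpp, the tubulin gene Tubb5, stood at 2360, 1343, 1842 and 1301 CPM. Germ cells, most of which divide or carry these RNAs, reached 84.6%, 82.0%, 74.6% and 78.6% by the same measure after thinning, and gave Top2a at 302, 376, 269 and 352 CPM.

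Asns, which encodes asparagine synthetase, was named by the rule for the largest ratios. For context, 9 other genes of the amino acid response were picked after their values were seen, so their count supports nothing. Of the 10, 6 were higher and none lower in the 2-day pair, and 6 were higher and none lower in the 7-day pair. Of all genes, 8.33% were higher and 8.62% lower in the first pair, and 11.0% and 7.48% in the second. Asns, Trib3 and Chac1 reached the 50-UMI minimum through the cultures. The amino acid transporter genes Slc7a5 and Slc3a2, given with the barrier genes, were not among the 10. Both had lower CPM in both cultures than in either in vivo library. Asns stood at 426, 85.5, 6.61 and 18.9 CPM, with 264, 62, 2 and 7 UMIs in 42, 19, 2 and 6 cells. It was 64.5-fold higher in the 2-day pair, with a counting interval of 4.14 to 9.06 on the log2 scale, and 4.53-fold higher in the 7-day pair (1.05 to 3.55). Germ cells gave 55.6, 38.9, 54.2 and 51.0 CPM, a level that did not follow the culture. Trib3, a pseudokinase target of ATF4, stood at 102, 13.8, 9.92 and 16.2 CPM. Chac1, which degrades glutathione, stood at 50.1, 34.5, 0 and 5.39 CPM, and Eif4ebp1, a translation repressor, at 905, 499, 109 and 75.4 CPM. Atf4, the transcription factor of the response, Ddit3, Psat1 and Shmt2 stood within the size rule in the 2-day pair, at 0.93, 0.09, 0.07 and 0.53.

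The windows of Asns and Chac1 are shown because they hold TGATGNAA, the core of the amino acid response element, found on either strand in 3.45% of the 32851 windows of 250 bases. Of 10 such genes, 9 had a window and 2 held the motif. Asns is chr6:7693210-7693459 (minus strand) with the motif 23 to 16 bases before the start, and Chac1 is chr2:119350992-119351241 (plus strand) with the motif read on the opposite strand, 193 to 186 bases before the start.
Asns: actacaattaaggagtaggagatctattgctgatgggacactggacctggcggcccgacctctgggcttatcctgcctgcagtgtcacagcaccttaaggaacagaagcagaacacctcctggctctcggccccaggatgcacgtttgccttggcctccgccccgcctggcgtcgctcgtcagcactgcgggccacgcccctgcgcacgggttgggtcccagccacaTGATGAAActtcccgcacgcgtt
Chac1: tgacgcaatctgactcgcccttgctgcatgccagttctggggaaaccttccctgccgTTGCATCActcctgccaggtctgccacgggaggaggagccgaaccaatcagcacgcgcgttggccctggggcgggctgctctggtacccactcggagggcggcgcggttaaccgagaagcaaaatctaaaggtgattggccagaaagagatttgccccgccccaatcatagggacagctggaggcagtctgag

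The rule for named genes also picked genes higher in both cultures, among them Igfbp3, Pgf and Ccl2. Chst1, a sulfotransferase, stood at 168, 482 and 3.31 CPM with no UMI at 14 dpp. Upp1, uridine phosphorylase, stood at 320, 238, 16.5 and 16.2 CPM. Both cultures were above both in vivo libraries in Chst1 and Upp1. Gal, the neuropeptide galanin, stood at 572, 163, 0 and 2.69 CPM, with 54% of the 7-day UMIs in 1 cell. Gm10260, a near copy of Rps18, stood at 318, 221, 6.61 and 0 CPM and in germ cells at 329, 184, 5.40 and 3.99 CPM, so it differed between libraries in both cell types. Saa3, an acute phase protein, had the largest 2-day ratio, at 1202, 40.0, 0 and 2.69 CPM, but 64% of its 2-day UMIs lay in 1 cell and germ cells gave 1230 CPM.

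Of the 211 genes lower in both pairs, the rule named the 8 with the largest difference in both, Slc39a8, Slc6a6, Cthrc1, Pcp4l1, Itm2a, Rbp7, Ptn and Tagln. Slc39a8, a zinc and manganese importer, had 1 UMI in the 2-day culture and none in the 7-day culture, against 390 and 78.1 CPM at 9 dpp and 14 dpp. Slc6a6, the taurine transporter, stood at 3.23, 8.27, 231 and 380 CPM. Itm2a, a type II membrane protein, stood at 93.7, 67.5, 1058 and 795 CPM, and Rbp7, a retinol-binding protein of microvessels, at 3.23, 4.14, 136 and 399 CPM. Both in vivo libraries lay above both cultures in each of these genes. Tagln, a smooth muscle gene, had 67% and 92% of its in vivo UMIs in 1 cell.

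Several lists showed no common direction. As their background, 8.33% of all genes were higher and 8.62% lower in the first pair, and 11.0% and 7.48% in the second. Hypoxia and glycolysis genes had 1 higher and 3 lower of 13 in both pairs (medians 0.033 and −0.12). Immediate early and heat shock genes had 2 higher and 4 lower of 17, then 1 higher and 2 lower. Junction and caveolae genes had none higher and 3 lower of 11, then 2 higher and 3 lower, with Cav1 at 404, 623, 860 and 428 CPM. Coagulation genes gave medians of −0.024 and 0.18. Igfbp7 (6882, 4320, 10482 and 14605 CPM) and Igfbp4 (174, 145, 532 and 797 CPM) ran opposite to Igfbp3 within their family, and the median of the 5 family members compared was −0.61 for the 2-day pair and −0.37 for the other pair, but 0.87 and 0.47 without the cells with stromal UMIs. Igf1 stood at 225, 215, 109 and 37.7 CPM. Among the ligands that act on neighbouring cells, Bmp2 was high in culture at 51.7, 64.8, 3.31 and 2.69 CPM, and Kitl, the ligand of Kit on spermatogonia and other cells, stood at 129, 74.4, 56.2 and 186 CPM.

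The direction of the mesenchymal list differed with and without the cells that carried stromal UMIs. Of 12 compared, 2 were higher and 7 lower in the 2-day pair (median −1.24; 8.33% and 8.62% of all genes), while without those cells 7 passed the minimum, 4 were higher and 1 lower (median 1.09). In the 7-day pair 6 were higher and 4 lower (median 0.93; 11.0% and 7.48% of all genes), and without those cells 3 were higher and 2 lower of 7 (median 0.085). Vim, an intermediate filament gene also expressed by endothelium, stood at 5781, 10377, 2655 and 2796 CPM with a 2-day log2 ratio of 1.12, and 1.09 without the cells. Timp1, a protease inhibitor, stood at 636, 389, 103 and 75.4 CPM. Col1a1 stood at 85.6, 113, 288 and 10.8 CPM, and its 2-day log2 ratio of −1.64 was 0.68 without the cells.

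The comparisons of age in vivo and of time in culture share libraries with the pairs above and are given on their own. From 9 dpp to 14 dpp 163 genes were higher (3.16%) and 236 lower (4.57%), with a median of −0.068. That split depended on scaling, with 224 higher and 178 lower under TMM and 209 and 184 under DESeq2 size factors, so that the share of called genes that were higher went from 40.9% to 55.7% and 53.2%. The median of all genes went to 0.039 and 0.019. Slco1a4, Car4, Thrsp and Hspa1a had the largest ratios. Hspa1a, a heat shock gene, stood at 3.31 CPM at 9 dpp and 514 CPM at 14 dpp. Pltp, phospholipid transfer protein, stood at 106 and 552 CPM (5.22-fold, log2 2.38, 1.84 to 2.97), and Mfsd2a at 56.2 and 242 CPM (4.31-fold, 2.11, 1.35 to 2.95). Interferon response genes had 6 higher and none lower of 19 (median 0.95), MHC class I genes 3 higher and none lower of 14 (median 0.72), and barrier transporters 2 higher and none lower of 8 (median 0.84). Sprouting genes had none higher and 5 lower of 14 (median −0.48). Esm1, a proteoglycan of tip cells, stood at 129 and 26.9 CPM, Gpihbp1 at 430 and 102 CPM, and Mest, an imprinted gene of growing tissue, at 222 and 21.5 CPM.

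The 4 genes with the smallest ratios from 9 dpp to 14 dpp, Htra3, Mfap4, Meg3 and Col1a1, were genes of the cells with stromal UMIs. Htra3 stood at 513 CPM at 9 dpp and 5.39 CPM at 14 dpp, a log2 ratio of −5.09, and −0.77 without those cells. Mest kept a log2 ratio of −3.06 without them, against −2.88 with them.

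Between the cultures 169 genes were higher at 7 days (3.27%) and 102 lower (1.98%), with a median of 0.014. Crip1, a LIM domain protein, stood at 111 CPM at 2 days and 1514 CPM at 7 days (13.6-fold, log2 3.76, 3.41 to 4.14). Car12, a carbonic anhydrase, stood at 3.23 and 146 CPM and was spread over cells, with 18% of the 7-day UMIs in the top cell. Gkn1 stood at 11.3 and 221 CPM, and 1500015O10Rik at 0 and 336 CPM in 2 cells. Pgf was 7.83-fold higher at 7 days (log2 2.97, 2.66 to 3.30). Lower at 7 days were Kcne3, Tgm2, a transglutaminase, at 202 and 27.6 CPM, Lcn2 at 53.3 and 1.38 CPM, and Saa3. Asns was 4.99-fold lower at 7 days (log2 −2.32, −2.74 to −1.91). Interferon response genes had 1 higher and 7 lower of 19 (median −0.87) and MHC class I genes none higher and 3 lower of 14 (median −0.81), with B2m 1.82-fold lower (log2 −0.87, −0.96 to −0.77).

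The genes that set these cells apart from all other kept cells by the largest ratio of mean CPM were 8430408G22Rik, Adgrl4, Ces2e, Cyyr1, Esm1, Gimap8, Gkn1, Gm32688, Gpihbp1 and Myct1, given as a description since the cells were selected on their expression. Their levels were not fixed. Ces2e, a carboxylesterase, stood at 3.23, 0, 56.2 and 97.0 CPM, and Myct1, an endothelial membrane protein, at 200, 262, 255 and 350 CPM. Gimap8 stood at 30.7, 28.9, 9.92 and 21.5 CPM, and Adgrl4, an adhesion receptor of vessels, at 74.3, 66.2, 129 and 127 CPM.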

How the data were processed

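Single-cell RNA libraries (10x Chromium 3' v2, 1 per group) were deposited by the authors as gene by barcode matrices of raw UMI counts, made with Cell Ranger 3.0.2 on mm10 per the submitters' processing notes. The gene annotation is not given in the sources used here. The matrices have 31053 rows for 31017 symbols, and rows of 1 symbol were summed. The libraries held 34491701, 38632065, 60829941 and 58369264 UMIs, in the order of the results.

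The cells were selected by the rule in the results. The rule, the 26 gene lists and the named genes were chosen with earlier results of these data known. UMIs were summed per library, mitochondrial genes were left out of the compared genes, and CPM used all UMIs of the selected cells. Poisson and Clopper-Pearson intervals, exact conditional binomial intervals for gene ratios and Katz intervals for share ratios are at 95% and cover counting error only. The genes named were the 8 highest and 8 lowest in both culture pairs, the 4 largest and 4 smallest ratios of each comparison, the 10 with the largest fold over other cells, and up to 6 per list. A level of 0 was bounded with 3 counts in that library. Stromal-marker cells were defined after the data were seen. Thinning drew 2000 UMIs per cell, for up to 500 germ cells per library. Germ cells had at least 5 UMIs of germ cell genes, and their levels serve as a gauge of free RNA only for genes that germ cells do not express. Scrublet, in scanpy 1.11.5, was run with an expected doublet share of 6%. TMM (edgeR 4.0.16) and DESeq2 1.42.0 size factors, in R 4.3.3, served as alternative scalings only. Other tools were scipy 1.17.1, numpy 2.4.6, pandas 2.3.3 and matplotlib 3.10.9. For shares 6 alternatives and for genes 14 were planned, and 3 were added after the data were seen. Gene positions came from GENCODE M21 and promoters from RefSeq. 1 gene that the rule picked is not reported here.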

Additional observations from a re-analysis of the deposited data

Results flagged for a closer look

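The genes below were called in opposite directions in the 2 culture pairs. The difference between the pairs was not tested, since each group has 1 library, and values are log2 ratios of CPM + 10 for the 2-day pair and then the 7-day pair.

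Iigp1, an interferon-induced GTPase, gave 1.55 and −2.79, and 1.77 and −2.91 without the cells with 3 or more stromal UMIs. Crip1 gave −2.11 and 1.68, and −2.14 and 1.86 without them. Hspa1a, a heat shock gene, gave 2.29 and −1.13, with 3.31 CPM at 9 dpp from 1 cell. Fabp5, a fatty acid binding protein, gave −1.77 and 1.55, and Fn1, fibronectin, gave −1.11 and 1.85.

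Lcn2, an iron carrier of the acute phase, gave 1.08 and −3.59, and 0.33 and −3.54 without the cells with stromal UMIs. The stromal genes Col1a1 (−1.64 and 2.57), Htra3 (−4.00 and 1.23) and Meg3 (−3.33 and 1.86) were no longer called in either pair without those cells. Col1a1 then gave 0.68 and 0.25, Htra3 −0.23 and 0.18, and Meg3 −0.86 and 0.81.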

How the results depend on the processing

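No paired analysis was possible because each group has 1 library. The share, with 1.33 in the 2-day pair after thinning, moved by less than its counting interval in 35 of 36 alternatives.

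The number of genes past 2-fold was 875, 952, 399 and 271 in the 2-day pair, the 7-day pair, 14 dpp against 9 dpp and 7 days against 2 days. It was 330, 432, 100 and 75 with 50 CPM added, 1423, 1434, 750 and 436 at 20 UMIs or more, 276, 341, 91 and 77 at 200 or more, 1764, 1745, 1072 and 526 at 1 or more, and 1415, 1484, 983 and 858 with the germ cell level subtracted. In the last 2 comparisons it was 675 and 482 with 1 CPM added and 811 and 553 with cells weighted equally. The minimum sets how many genes are counted, and the other causes were not tested.

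Of 1628 list medians under alternatives, 120 changed sign. Cell division genes gave a median of 0.0 in both culture pairs with the germ cell level subtracted, which decides nothing because germ cells express these genes. The 18 whose main median was 0.5 or more in size are given here, and the others started nearer to 0. Beside these 18, 135 medians moved by 0.5 or more. In the 2-day pair with 200 UMIs or more, capillary genes gave 0.36, leukocyte adhesion 0.069, interferon response −0.21 and flow response 0.79. Flow response gave 0.22 at 1 UMI or more and 0.024 with 8 or more selecting UMIs, where IGF binding proteins gave 0.81 and mesenchymal genes 2.38. Without the cells with stromal UMIs, added after the data were seen, these 2 lists gave 0.87 and 1.09. In the 7-day pair, the Notch list gave −0.043 at 20 UMIs or more and −0.038 at 1 or more, BMP genes 0.17 with stricter mural and germ limits and 0.039 at 200 UMIs or more, and mesenchymal genes −0.039 without the deepest cells, also added. IGF binding proteins gave 0.48 from 9 dpp to 14 dpp at 200 UMIs or more, and 0.37 between the cultures with cells weighted equally. Acute phase genes gave 0.27 between the cultures with the germ cell level subtracted.

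Named genes that changed sign were few, and the cause was not tested. With 8 or more selecting UMIs, Col1a1 gave 2.82 and Meg3 1.57 in the 2-day pair, Igf1 gave 0.10 from 9 dpp to 14 dpp, and Id2 −0.63 and Meg3 −0.081 between the cultures. Acta2 gave −0.15 from 9 dpp to 14 dpp with 3 or more selecting UMIs, and Igf1 0.068 without the cells with stromal UMIs. With the germ cell level subtracted, Gm10260 gave −0.17 in the 2-day pair and Saa3 1.05 between the cultures. Myl9 gave 0.19 in the 7-day pair with stricter mural and germ limits, and 0.31 in cells with at least 3 identity genes, where Id2 gave −0.46 between the cultures. Between the cultures with cells weighted equally, Birc5 gave −0.46 and Serping1 0.64. Without the deepest cells Birc5 gave −0.18 and Ube2c −0.51, and without the cells with stromal UMIs −0.57 and −0.70. With stricter mural and germ limits Ube2c gave −0.63 and Pclaf −0.45.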
